A study of Mus musculus with 48 samples.

Results

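The genes described here are 32 genes of cholesterol and fatty acid synthesis, chosen as a list by symbol: 18 enzymes of the cholesterol pathway, 10 enzymes of fatty acid synthesis and desaturation, and 4 genes that regulate the pathway or carry sterol. A named probe set was present for 31 of the 32 genes, out of 18193 genes with a named probe set on the array, and all 31 passed the filter on low signals that 12764 genes passed. Acat2, the thiolase gene at the start of the pathway, is not analysed here, which leaves 17 cholesterol enzymes. Where a gene had several probe sets, the one with the highest mean signal over all arrays was used. The level of a gene is given as its MAS5 signal, a scaled fluorescence value of an Affymetrix array, and a change is given as a difference of log2(signal + 3).

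RNA came from mouse 32D cells, a myeloid progenitor line, that express the BCR/ABL oncoprotein and had been transduced with the MigRI retroviral vector. The first line carried C/EBPα-ER with the wild-type sequence (WT), a myeloid transcription factor fused to an estrogen receptor domain that 4-hydroxytamoxifen (4-HT) turns on. The second line carried the K298E fusion, labelled as deficient in DNA binding, and the next the Δ(177-191) fusion, labelled as deficient in interaction with CDK2 and CDK4. The MigRI empty vector line, called vector, was the control. All 4 lines carried BCR/ABL, grew in medium with serum and received 4-HT, and each was sampled at 0, 6, 9 and 12 h with 3 arrays, which gave 16 groups and 48 arrays. Each construct was carried by a single transduced line and there was no untreated culture at the later times, so line and construct, and 4-HT and time in culture, cannot be told apart. Array numbers 1 to 3 follow the labels, which do not tie them to experiments or cultures.

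Cholesterol is built from acetyl-CoA through mevalonate, isoprenoid diphosphates, squalene and lanosterol. Fatty acids are built from the same acetyl-CoA by carboxylation, chain building on fatty acid synthase, elongation and desaturation. Both pathways are driven by the sterol regulatory element binding proteins (SREBPs), the products of Srebf1 and Srebf2, which are held in the endoplasmic reticulum by Insig proteins when sterols are plentiful and move to the nucleus when sterols are scarce. Srebf2 is best known for cholesterol genes and Srebf1 for fatty acid genes. Proliferating blood cells use both pathways to build membranes.

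All 48 arrays had been scaled alike, with a mean signal between 99.9994 and 100.017 after the lowest and highest 2% of values were left out. The median signal of an array was 11 to 19, and 0.324% to 3.40% of its values were 0. No 2 arrays held identical values. Hematopoietic genes matched the labelled cell type in part: group means of Ptprc, the pan-leukocyte antigen CD45, were 1478 to 4383 and those of Spi1, a myeloid transcription factor, 388 to 1709, while the progenitor genes Kit and Cd34 stayed at 5 to 15.7 and 1 to 9, close to or below 14, the median of all signals in the table. The Δ(177-191) line stood apart at 0 h, where 28.6% of all genes tested differed from vector, against 5.74% in WT and 6.48% in K298E cells. The summed signal of 9 granulocyte maturation genes at 0 h was 879 to 918 in WT, 386 to 426 in K298E, 5030 to 5383 in Δ(177-191) and 554 to 610 in vector cells.

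Promoter letters are shown for 4 genes. Msmo1, Idi1 and Fads2 had the largest relative changes at 12 h among the genes that passed the test in WT cells. Hmgcs1 was added after the letters were seen, because its promoter holds an SREBP site. Each window runs from 250 bases before the gene's start to 50 bases after it, in the direction of transcription, from RefSeq on GRCm38.p6. Capitals mark an SREBP site (TCACNCCAC) or a CCAAT box, which binds NF-Y, an SREBP partner factor. A motif on the other strand appears as its reverse complement, so that ATTGG is also a CCAAT box. Msmo1 (methylsterol monooxygenase, minus strand, chr8:64733529-64733828) held 3 CCAAT boxes.
Msmo1: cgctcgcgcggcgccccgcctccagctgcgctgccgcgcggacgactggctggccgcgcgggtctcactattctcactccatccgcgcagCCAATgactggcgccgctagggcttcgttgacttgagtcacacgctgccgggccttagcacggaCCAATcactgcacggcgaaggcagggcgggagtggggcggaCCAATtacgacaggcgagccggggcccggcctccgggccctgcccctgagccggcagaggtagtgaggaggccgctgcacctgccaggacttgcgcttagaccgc
Idi1 (isopentenyl diphosphate isomerase, plus strand, chr13:8885356-8885655) held 2.
Idi1: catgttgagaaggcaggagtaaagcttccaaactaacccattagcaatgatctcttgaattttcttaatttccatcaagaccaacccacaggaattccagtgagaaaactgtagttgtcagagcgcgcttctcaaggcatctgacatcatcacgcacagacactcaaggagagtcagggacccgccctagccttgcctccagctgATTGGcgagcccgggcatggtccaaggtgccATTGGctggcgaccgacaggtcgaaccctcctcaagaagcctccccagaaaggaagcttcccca
Fads2 (fatty acid desaturase, minus strand, chr19:10101454-10101753) held neither motif.
Fads2: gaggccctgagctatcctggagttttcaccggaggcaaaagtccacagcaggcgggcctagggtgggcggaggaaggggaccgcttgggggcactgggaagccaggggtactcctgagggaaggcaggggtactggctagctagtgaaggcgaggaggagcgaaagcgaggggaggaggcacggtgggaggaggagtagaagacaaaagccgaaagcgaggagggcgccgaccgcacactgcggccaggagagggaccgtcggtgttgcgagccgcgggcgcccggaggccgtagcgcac
Hmgcs1 (HMG-CoA synthase, plus strand, chr13:119690101-119690400) held 1 SREBP site, which starts at base 114 of the window, and 4 CCAAT boxes.
Hmgcs1: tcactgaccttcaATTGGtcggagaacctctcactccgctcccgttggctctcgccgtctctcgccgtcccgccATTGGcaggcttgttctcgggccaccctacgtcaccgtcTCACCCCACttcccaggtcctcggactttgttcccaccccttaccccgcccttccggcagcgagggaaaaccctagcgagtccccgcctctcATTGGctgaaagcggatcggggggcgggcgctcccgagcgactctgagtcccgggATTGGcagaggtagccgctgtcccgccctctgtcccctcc
The 25 of the 32 genes with an entry had 31 promoters, and motifs were counted on both strands in these and in all 32851 promoters of the table. CCAAT stood in 71.0% of the members' promoters and in 37.4% of all promoters, and the GC box GGGCGG in 74.2% and 35.7%. The SREBP site stood in 3.23% and 1.24%, which is 1 member promoter, the E-box CACGTG in 12.9% and 7.15%, and the C/EBP core motif TTGCNNAA in 6.45% and 10.8%. In the windows shown, no motif match overlapped another, and none held the C/EBP motif. These matches describe letters and say nothing of binding.

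At 6 h after 4-HT most of the genes had fallen in all 4 lines, the vector line included. Against 0 h of the same line, 20 of 31 genes fell and 2 rose in WT cells, 20 fell and 0 rose in K298E cells, 23 fell and 0 rose in Δ(177-191) cells, and 17 fell and 0 rose in vector cells (limma, adjusted p under 0.05). Of all genes tested, 19% fell and 32.5% changed in either direction in WT cells, and 7.04% fell in K298E, 18.3% in Δ(177-191) and 12% in vector cells. The median log2 change of the 31 genes at 6 h was -0.40 in WT, -0.59 in K298E, -0.78 in Δ(177-191) and -0.34 in vector cells, and that of all genes lay between -0.06 and -0.02. The vector line, which carries no fusion, fell in the same direction. In bulk RNA, fewer cells of a type and less RNA per cell cannot be told apart.

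**Figure D1:**
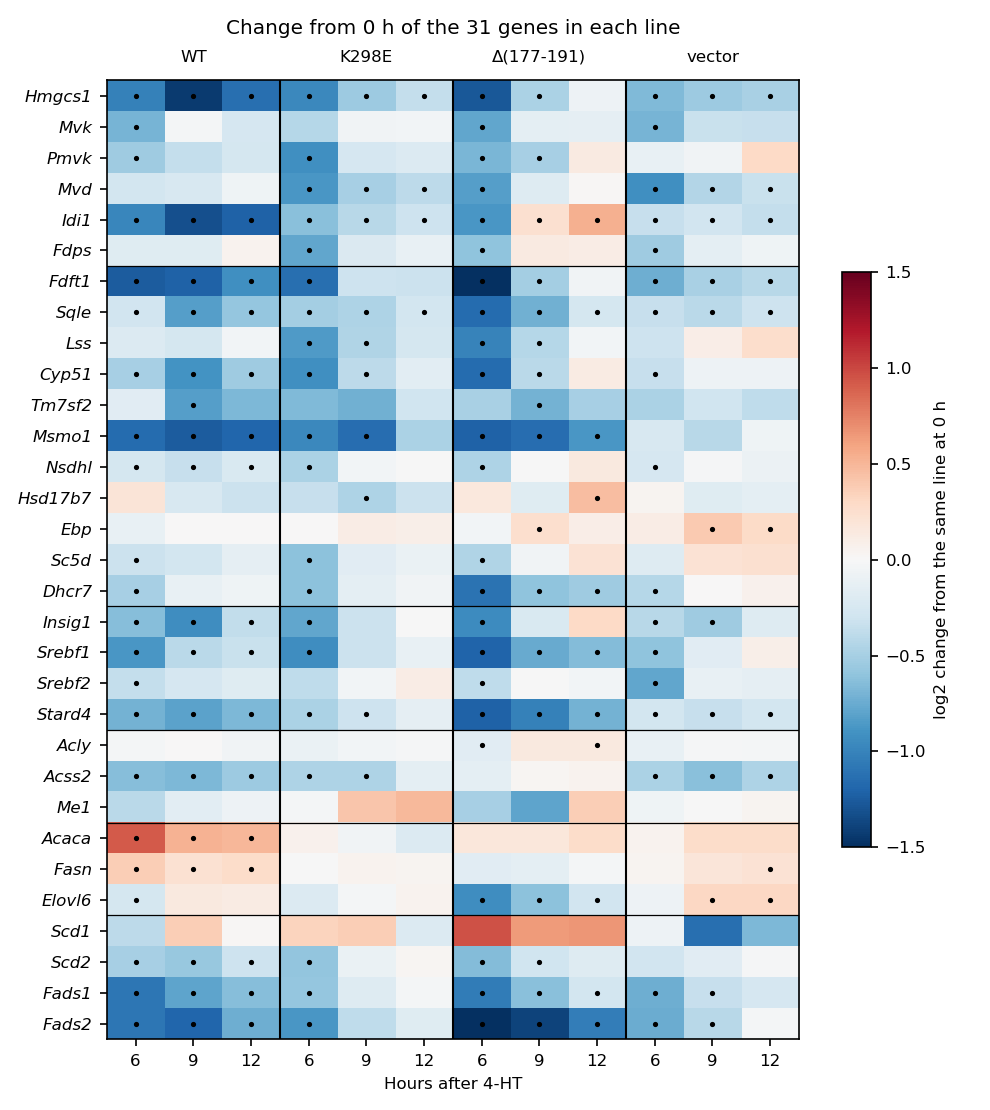
Log2 change from 0 h of the same line for each of the 31 genes (down the page, by role) at 6, 9 and 12 h in WT, K298E, Δ(177-191) and vector cells; colour gives the change with values beyond the scale shown in its end colours, and a dot marks an adjusted p under 0.05. At 6 h, 20 genes were lower in WT, 20 in K298E, 23 in Δ(177-191) and 17 in vector cells, and at 12 h 14 in WT, 4 in K298E, 8 in Δ(177-191) and 7 in vector cells.

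The 6 measured mevalonate genes carry acetyl-CoA to farnesyl diphosphate. At 6 h, 4 of the 6 fell in WT, 5 in K298E, all 6 in Δ(177-191) and 5 in vector cells. Hmgcs1, which makes HMG-CoA, the precursor of mevalonate, had signals of 1791, 1629 and 1604 at 0 h, 842, 842 and 790 at 6 h, 521, 746 and 609 at 9 h, and 777, 755 and 760 at 12 h in WT cells. In K298E cells Hmgcs1 had 1110, 1184 and 1139 at 0 h, 490, 687 and 592 at 6 h, 847, 759 and 744 at 9 h, and 943, 781 and 955 at 12 h. All later arrays of WT, K298E and vector cells lay below the arrays of their own line at 0 h. Hmgcs1 in Δ(177-191) cells gave 1861, 2019 and 2034 at 0 h, 859, 842 and 739 at 6 h, 1369, 1439 and 1460 at 9 h, and 1735, 1941 and 1927 at 12 h. In vector cells Hmgcs1 had 1214, 1257 and 1188 at 0 h, 775, 748 and 781 at 6 h, 809, 848 and 857 at 9 h, and 916, 850 and 850 at 12 h. At 12 h the Δ(177-191) arrays overlapped those of 0 h again, and the WT arrays did not. The fall at 6 h was -1.02 ± 0.09 on the log2 scale in WT (adjusted p = 1.04e-11), -0.97 ± 0.09 in K298E, -1.28 ± 0.09 in Δ(177-191) and -0.67 ± 0.09 in vector cells.

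Idi1 makes dimethylallyl diphosphate, the starter of isoprenoid chains. In WT cells Idi1 had signals of 1718, 1851 and 2004 at 0 h, 876, 944 and 1014 at 6 h, 801, 723 and 713 at 9 h, and 820, 758 and 821 at 12 h. In K298E cells Idi1 had 1228, 1142 and 1214 at 0 h, 790, 750 and 775 at 6 h, 959, 888 and 832 at 9 h, and 828, 1041 and 1022 at 12 h. Every later array of both lines, and of vector cells, was below every array of its own 0 h. Idi1 in Δ(177-191) cells had 1249, 1204 and 1367 at 0 h, 695, 633 and 762 at 6 h, 1349, 1646 and 1512 at 9 h, and 1672, 1842 and 2025 at 12 h. In vector cells Idi1 had 1998, 2100 and 2094 at 0 h, 1673, 1598 and 1592 at 6 h, 1665, 1625 and 1799 at 9 h, and 1668, 1510 and 1653 at 12 h. The Δ(177-191) line alone of the 4 ended above its own start, with no overlap between its arrays at 12 h and at 0 h. Its rise at 12 h was 0.53 ± 0.09 (adjusted p = 3.45e-06), while Idi1 fell with a log2 difference of -1.21 ± 0.09 in WT (adjusted p = 4.24e-15), -0.32 ± 0.09 in K298E and -0.36 ± 0.09 in vector cells.

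Fdps, the synthase of farnesyl diphosphate, gave signals of 1785, 1587 and 1883 at 0 h, 1652, 1479 and 1492 at 6 h, 1620, 1477 and 1527 at 9 h, and 1957, 1713 and 1771 at 12 h in WT cells. In K298E cells Fdps had 1653, 1402 and 1644 at 0 h, 904, 874 and 950 at 6 h, 1426, 1268 and 1326 at 9 h, and 1445, 1504 and 1390 at 12 h. Fdps fell at 6 h in K298E cells, with a log2 difference of -0.78 ± 0.08, and was at -0.18 ± 0.08 in WT cells, which did not pass the test. Fdps in Δ(177-191) cells had 1741, 1644 and 1696 at 0 h, 1111, 1110 and 1116 at 6 h, 2205, 1751 and 1663 at 9 h, and 1773, 1728 and 2019 at 12 h. In vector cells Fdps had 1485, 1493 and 1559 at 0 h, 1033, 1056 and 1052 at 6 h, 1354, 1451 and 1294 at 9 h, and 1498, 1391 and 1433 at 12 h. It fell at 6 h with a log2 difference of -0.60 ± 0.08 in Δ(177-191) and -0.53 ± 0.08 in vector cells, and in none of the 4 lines did its level at 12 h differ from 0 h by the test. The other 3 genes, the kinases Mvk and Pmvk and the decarboxylase Mvd, had group means of 49.3 to 265. Mvd fell at 6 h with a log2 difference of -0.87 ± 0.11 in K298E, -0.83 ± 0.11 in Δ(177-191) and -0.92 ± 0.11 in vector cells, and was at -0.27 ± 0.11 in WT cells, where it did not pass.

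From squalene to cholesterol, 7 of 11 genes fell at 6 h in WT, 8 in K298E, 8 in Δ(177-191) and 5 in vector cells. Sqle, squalene epoxidase, an oxygen-dependent and rate-limiting step, had signals of 1032, 1121 and 1053 at 0 h, 879, 910 and 833 at 6 h, 585, 604 and 616 at 9 h, and 713, 742 and 692 at 12 h in WT cells. In K298E cells Sqle had 922, 986 and 975 at 0 h, 642, 706 and 673 at 6 h, 667, 700 and 722 at 9 h, and 726, 876 and 778 at 12 h. All of these later arrays, and those of Δ(177-191) and vector cells, lay below those of 0 h of the same line. Sqle in Δ(177-191) cells had 1184, 1157 and 1122 at 0 h, 505, 569 and 480 at 6 h, 602, 761 and 737 at 9 h, and 1040, 943 and 900 at 12 h. In vector cells Sqle had 987, 1036 and 983 at 0 h, 795, 809 and 760 at 6 h, 748, 760 and 767 at 9 h, and 782, 831 and 816 at 12 h. The deepest Sqle signals were those of Δ(177-191) cells at 6 h, and WT cells reached theirs only at 9 h. Sqle changed with a log2 difference of -0.29 ± 0.07 in WT and -1.15 ± 0.07 in Δ(177-191) cells at 6 h, and with a log2 difference of -0.83 ± 0.07 in WT and -0.73 ± 0.07 in Δ(177-191) cells at 9 h.

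Msmo1, which removes methyl groups from sterol precursors, had signals of 1668, 1507 and 1212 at 0 h, 701, 695 and 557 at 6 h, 500, 642 and 709 at 9 h, and 523, 730 and 669 at 12 h in WT cells. In K298E cells Msmo1 had 902, 984 and 1081 at 0 h, 311, 670 and 610 at 6 h, 614, 533 and 266 at 9 h, and 686, 605 and 850 at 12 h. The fall in WT cells was as deep at 12 h as at 6 h, at -1.19 ± 0.22 against -1.16 ± 0.22. Msmo1 in Δ(177-191) cells had 1727, 1925 and 1712 at 0 h, 823, 721 and 759 at 6 h, 690, 769 and 991 at 9 h, and 857, 937 and 1137 at 12 h. In vector cells Msmo1 had 922, 622 and 800 at 0 h, 721, 797 and 483 at 6 h, 579, 573 and 580 at 9 h, and 894, 656 and 692 at 12 h. Its arrays scattered more than those of Hmgcs1 or Idi1, and in vector cells no change from 0 h passed the test. Fdft1, squalene synthase, the branch point into sterols, fell at 6 h with a log2 difference of -1.25 ± 0.10 in WT, -1.13 ± 0.10 in K298E, -1.50 ± 0.10 in Δ(177-191) and -0.73 ± 0.10 in vector cells. Cyp51, lanosterol demethylase, fell with a log2 difference of -0.50 ± 0.11 in WT, -0.92 ± 0.11 in K298E, -1.15 ± 0.11 in Δ(177-191) and -0.34 ± 0.11 in vector cells. Nsdhl, a sterol dehydrogenase, and Dhcr7, the last reductase before cholesterol, also fell in all 4 lines. Ebp, the sterol isomerase, did not pass at 6 h in any line, with changes of -0.11 in WT, 0.00 in K298E, -0.04 in Δ(177-191) and 0.11 in vector cells, and it rose at 12 h in vector cells by 0.29 ± 0.08 (adjusted p = 0.00592).

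**Figure D2:**
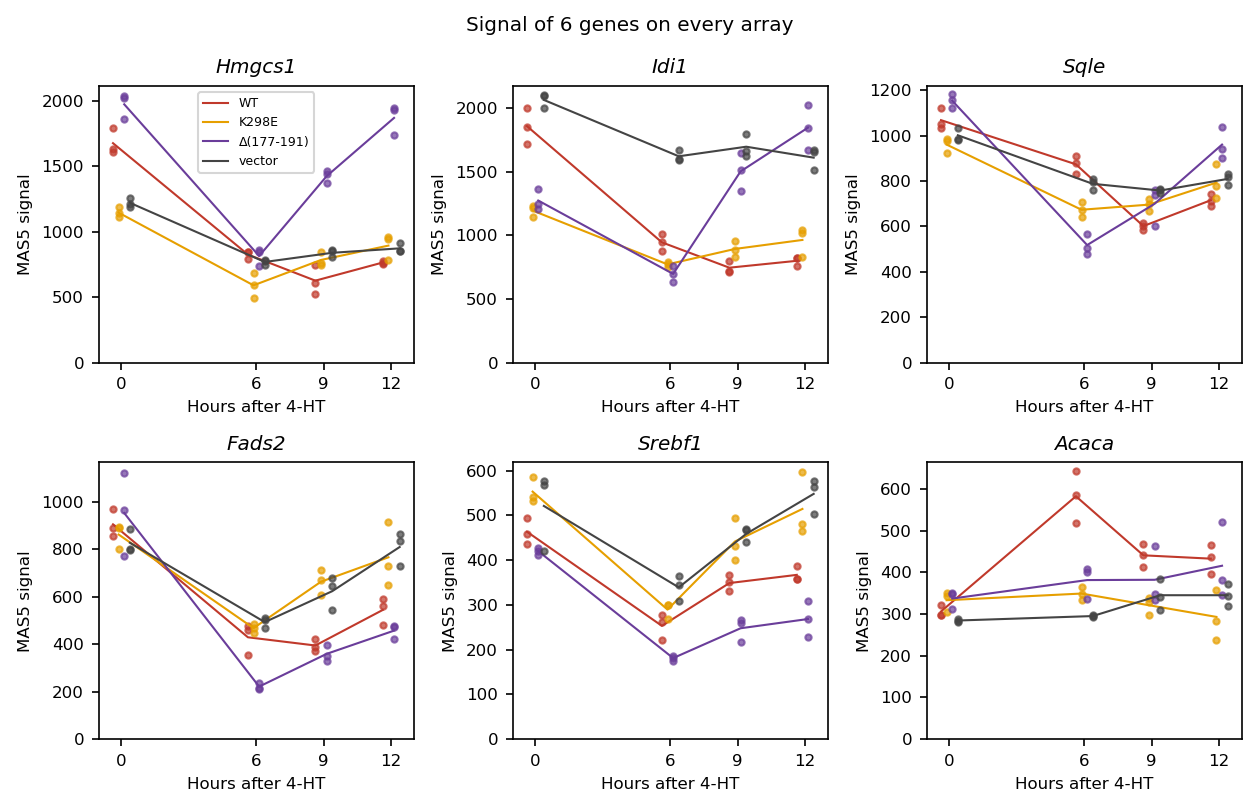
MAS5 signal of Hmgcs1, Idi1, Sqle, Fads2, Srebf1 and Acaca (linear axis) against hours after 4-HT. Each point is 1 array and lines join the means of 3 arrays in WT, K298E, Δ(177-191) and vector cells. Hmgcs1, Idi1 and Sqle are lowest at 6 or 9 h in most lines and climb by 12 h in Δ(177-191) cells, while WT cells stay low; Acaca is high at 6 h in WT cells, at 519 to 643.

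Between 6 and 12 h the number of genes that rose differed between the lines. Such counts do not test the lines against each other, which the direct comparisons given below do. In WT cells 7 of 31 genes rose and 3 fell, in K298E cells 20 rose and 0 fell, in Δ(177-191) cells 21 rose and 0 fell, and in vector cells 10 rose and 0 fell (limma, 12 h against 6 h of the same line). Of all genes tested, 8.77% rose and 15.3% changed in either direction in WT cells over the same hours, and 5.73% rose in K298E, 9.73% in Δ(177-191) and 5.03% in vector cells. The 3 that fell in WT cells were Sqle (-0.29 ± 0.07, adjusted p = 0.006), Hsd17b7, a sterol ketoreductase (-0.52 ± 0.14, adjusted p = 0.00873), and Acaca (-0.42 ± 0.12, adjusted p = 0.0143). The count of 10 in WT cells was 6 without array 1 of 12 h and 6 without array 3 of 12 h. The arrays at 6 h enter both the early and the late change with opposite signs, and the late comparison was added after the first results were seen.

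The largest late rises were in Δ(177-191) cells: Fdft1 rose by 1.45 ± 0.10 (adjusted p = 3.05e-14), Idi1 by 1.40 ± 0.09 (adjusted p = 5.14e-16), Cyp51 by 1.28 ± 0.11, Insig1 by 1.24 ± 0.13 and Hmgcs1 by 1.20 ± 0.09. In WT cells Idi1 was at -0.24 ± 0.09, Hmgcs1 at -0.11 ± 0.09 and Cyp51 at -0.03 ± 0.11, none of which passed the test. The late change was compared between the lines directly, as WT minus Δ(177-191). It was lower in WT cells for 14 of 31 genes and higher for 0, against 4.51% of all genes tested lower and 8.5% in either direction. The 14 were 10 of 17 cholesterol enzymes, 2 of 10 fatty acid enzymes (Fads2 and Acly) and 2 of 4 regulators (Insig1 and Stard4). The difference was -1.64 ± 0.12 (adjusted p = 1.9e-13) for Idi1, -1.31 ± 0.13 (adjusted p = 1.29e-09) for Hmgcs1, -1.31 ± 0.16 for Cyp51 and -1.18 ± 0.10 for Sqle. Its median was -0.58 over cholesterol enzymes, -0.30 over fatty acid enzymes, -0.31 over regulators and 0.03 over all genes.

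Set against the late change of vector cells, 8 of 31 genes rose more in Δ(177-191) cells and 0 rose less, against 4.4% of all genes higher and 7.47% in either direction. These were Hmgcs1, Idi1, Fdft1, Sqle, Cyp51, Nsdhl, Insig1 and Stard4, from 0.45 for Nsdhl to 1.41 for Idi1. In WT and K298E cells 0 of 31 passed the same limma test, at a background of 0.65% and 0.877%. At an unadjusted p under 0.05, 0 were higher and 8 lower in WT cells, and 9 were higher and 1 lower in K298E cells.

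**Figure D3:**
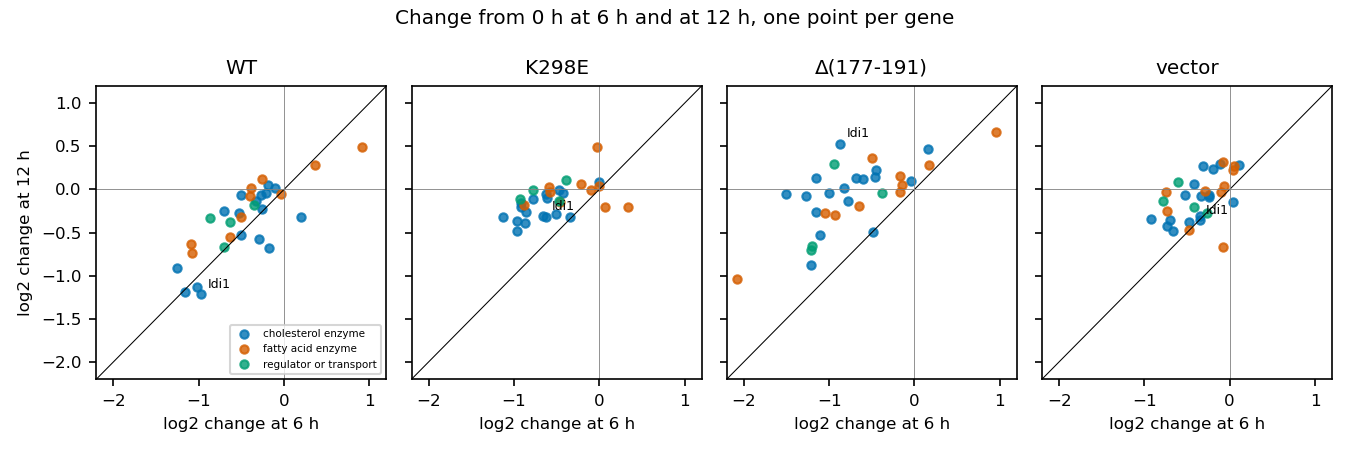
Log2 change from 0 h at 12 h (vertical) against that at 6 h (horizontal) for each of the 31 genes, with 1 panel each for WT, K298E, Δ(177-191) and vector cells; the diagonal marks equal change and Idi1 is labelled. Points above the diagonal were higher at 12 h than at 6 h; for Idi1, WT cells lie at -1.21 at 12 h and -0.97 at 6 h, and Δ(177-191) cells at 0.53 at 12 h and -0.87 at 6 h.

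The relative change is the change from 0 h in a construct line minus that in vector cells. In WT cells at 12 h it was lower for 6 of 31 genes and higher for 0, where 3.4% of all genes were lower and 7.22% changed in either direction. The 6 were Hmgcs1 (-0.64 ± 0.13, adjusted p = 0.00084), Idi1 (-0.85 ± 0.12, adjusted p = 1.82e-06), Fdft1 (-0.50 ± 0.15, adjusted p = 0.0306), Msmo1 (-1.13 ± 0.32, adjusted p = 0.0217), the sterol carrier gene Stard4 (-0.40 ± 0.09, adjusted p = 0.00402) and Fads2 (-0.70 ± 0.16, adjusted p = 0.00328). At 6 h, 2 were higher and 3 lower (6.26% of all genes in either direction), and at 9 h 0 were higher and 10 lower (6.11%). The higher ones at 6 h were Mvd (0.64 ± 0.15, adjusted p = 0.00459) and Acaca (0.86 ± 0.17, adjusted p = 0.000563). Most of the contrast for Hmgcs1, Fdft1 and Msmo1 lies at 0 h. WT cells then had more of each than vector cells, by 0.46 ± 0.09, 0.39 ± 0.10 and 0.91 ± 0.22 on the log2 scale.

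Single arrays decided 2 of the 6 calls in WT cells at 12 h. Fdft1 missed the threshold without WT array 2 or 3 of 0 h (adjusted p = 0.0918 and 0.0682), WT array 3 of 12 h (0.124), vector array 1 or 3 of 0 h (0.0594 and 0.0886) or vector array 1 or 2 of 12 h (0.0743 and 0.0547). Msmo1 missed it without WT array 1 or 2 of 0 h (0.0723 and 0.0501), WT array 1 of 12 h (0.0845), vector array 2 of 0 h (0.0918) or vector array 1 of 12 h (0.0838). Other probe sets bear on the same genes. The 3 other tested probe sets of Hmgcs1 were at -0.53 to -0.40, 1 of them past the threshold, the other probe set of Fdft1 was at -0.49 (adjusted p = 0.0128), and that of Idi1 at -0.66 (adjusted p = 0.212). Of the other probe sets of Fads2, the brighter was at -0.60 (adjusted p = 0.00533).

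In K298E cells the relative change passed the test for 0 of 31 genes at 6 h, at 9 h and at 12 h (limma), when 1.31%, 5.2% and 5.64% of all genes did. At an unadjusted p under 0.05, 1 gene was higher and 12 lower at 6 h, 0 higher and 6 lower at 9 h, and 1 higher and 4 lower at 12 h. The lowest adjusted p was 0.0607 at 6 h, 0.0502 at 9 h and 0.0651 at 12 h. Without array 3 of K298E cells at 12 h, 1 gene passed at 12 h. Idi1 was at 0.04 ± 0.12 and Hmgcs1 at 0.12 ± 0.13 relative to vector at 12 h.

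At 6 h in Δ(177-191) cells the relative change was lower for 13 of 31 genes and higher for 0 (10.1% of all genes lower, 18.3% in either direction). At 9 h it was higher for 2 and lower for 8 (22.4% in either direction), and at 12 h higher for 4 and lower for 5, which is close to the background of 22.4%, with 9.97% higher and 12.4% lower. Fads2 (-1.33 ± 0.16, adjusted p = 2.11e-08), Msmo1 (-0.98 ± 0.32), Stard4 (-0.94 ± 0.09, adjusted p = 1.63e-10), Elovl6, a fatty acid elongase (-0.86 ± 0.13), and Sqle (-0.81 ± 0.10, adjusted p = 8.65e-08) led the falls at 6 h. At 12 h Hmgcs1 (0.40 ± 0.13, adjusted p = 0.0273), Idi1 (0.89 ± 0.12, adjusted p = 2.46e-07), Hsd17b7 (0.61 ± 0.20, adjusted p = 0.0242) and Acss2, a cytosolic acetyl-CoA synthetase (0.52 ± 0.14, adjusted p = 0.00481), were higher. Dhcr7 (-0.59 ± 0.17, adjusted p = 0.0125), Srebf1 (-0.74 ± 0.15, adjusted p = 0.000247), Stard4 (-0.43 ± 0.09), Elovl6 (-0.61 ± 0.13) and Fads2 (-1.01 ± 0.16, adjusted p = 5.43e-06) were lower. All 3 constructs are set against the same vector arrays, so their relative changes are not independent.

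Of the Δ(177-191) calls at 12 h, those of Hmgcs1, Hsd17b7 and Dhcr7 each depended on single arrays. Hmgcs1 missed the threshold without Δ(177-191) array 1 of 0 h (adjusted p = 0.0779), Δ(177-191) array 2 or 3 of 12 h (0.0674 and 0.0634), vector array 2 of 0 h (0.0629) or vector array 2 or 3 of 12 h (0.0586 and 0.0604). All 3 other tested probe sets of Hmgcs1 passed in the same direction, at 0.51 to 0.74. Hsd17b7 missed it without Δ(177-191) array 1 or 2 of 0 h (0.0773 and 0.0525), Δ(177-191) array 1 or 2 of 12 h (0.0912 and 0.0606) or vector array 3 of 12 h (0.0775), and Dhcr7 without Δ(177-191) array 2 of 0 h (0.062) or vector array 3 of 12 h (0.0566). The other probe sets of Hsd17b7, Elovl6 and Acss2 did not pass, and the brighter other probe set of Elovl6 was at -0.03. Idi1 and Fads2 had a further probe set that passed in the same direction, at 1.18 (adjusted p = 0.00151) and -1.31 (adjusted p = 2.4e-09).

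**Figure D4:**
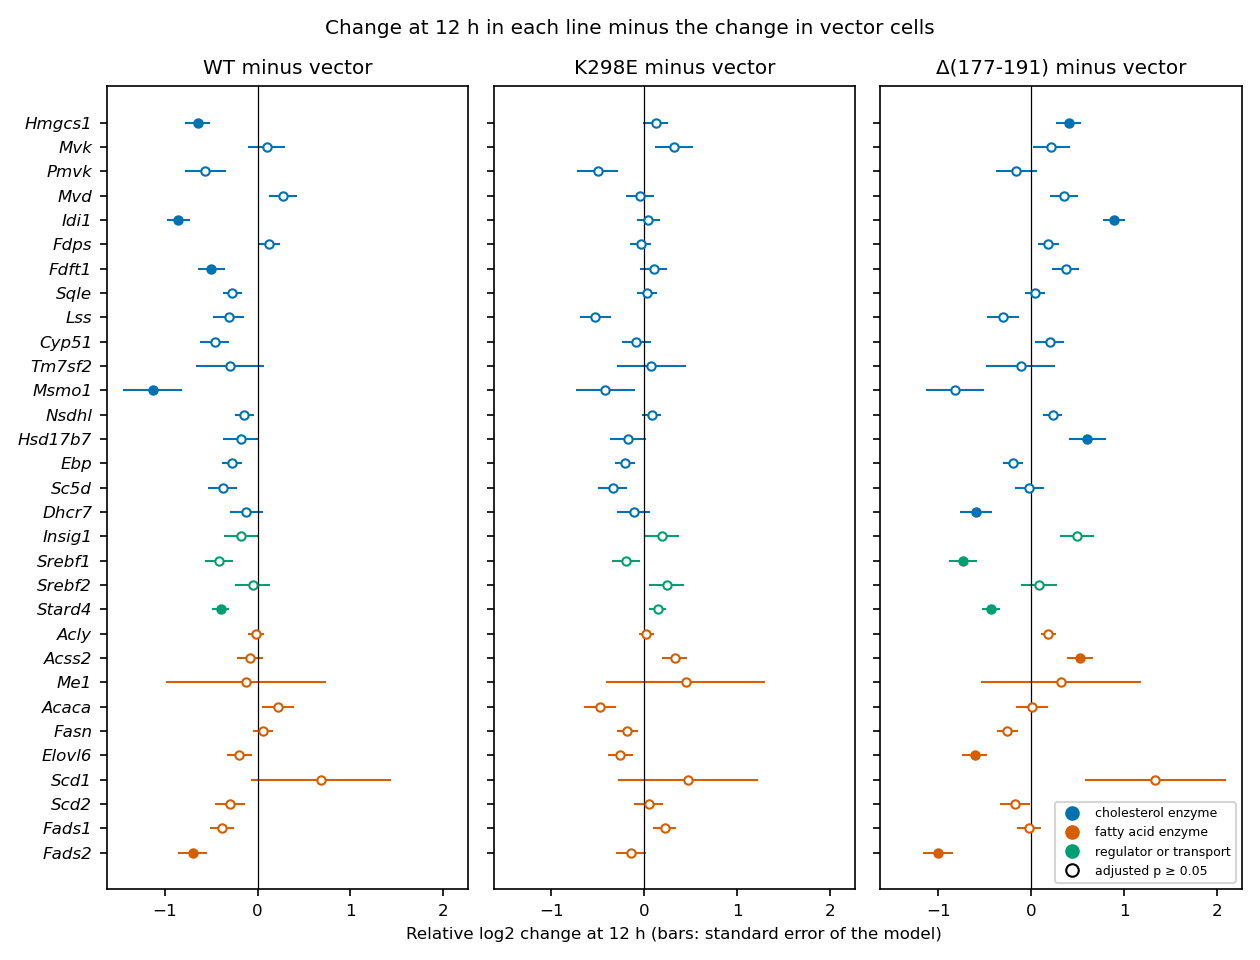
Relative change at 12 h (log2, change from 0 h in the construct line minus that in vector cells) of the 31 genes, ordered by role, in WT, K298E and Δ(177-191) cells; bars are standard errors and filled points passed an adjusted p of 0.05. In WT cells 6 genes passed, all below 0, in K298E cells 0, and in Δ(177-191) cells 4 above and 5 below 0; Idi1 stands at -0.85 in WT and 0.89 in Δ(177-191) cells.

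The regulators fell at 6 h together with the enzymes: all 4 in WT, Δ(177-191) and vector cells and 3 of 4 in K298E cells. Insig1, the retention protein of SREBPs and itself an SREBP target, had signals of 306, 362 and 295 at 0 h, 161, 215 and 246 at 6 h, 192, 159 and 149 at 9 h, and 230, 244 and 265 at 12 h in WT cells. In K298E cells Insig1 had 238, 251 and 233 at 0 h, 141, 121 and 158 at 6 h, 172, 230 and 180 at 9 h, and 242, 265 and 213 at 12 h. Both lines were lowest at 6 or 9 h. Insig1 in Δ(177-191) cells had 249, 223 and 233 at 0 h, 131, 115 and 116 at 6 h, 191, 225 and 185 at 9 h, and 283, 275 and 309 at 12 h. In vector cells Insig1 had 234, 249 and 242 at 0 h, 174, 182 and 186 at 6 h, 156, 182 and 160 at 9 h, and 190, 185 and 264 at 12 h. At 12 h all 3 WT arrays lay below those of 0 h and all 3 Δ(177-191) arrays above. Of the 4 lines, only WT cells passed the test at 12 h, at -0.37 ± 0.13 (adjusted p = 0.0242). Relative to vector at 12 h Insig1 was at -0.18 ± 0.18 in WT and 0.49 ± 0.18 in Δ(177-191) cells, and neither passed (adjusted p = 0.76 and 0.052).

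Srebf1 encodes the SREBP best known for fatty acid genes. In WT cells Srebf1 had signals of 459, 495 and 436 at 0 h, 261, 221 and 277 at 6 h, 366, 350 and 330 at 9 h, and 358, 386 and 357 at 12 h. In K298E cells Srebf1 had 532, 542 and 585 at 0 h, 269, 300 and 299 at 6 h, 494, 400 and 431 at 9 h, and 480, 466 and 597 at 12 h. The K298E arrays at 12 h overlapped those at 0 h, and the WT arrays stayed lower. Srebf1 in Δ(177-191) cells had 428, 412 and 420 at 0 h, 175, 182 and 186 at 6 h, 266, 218 and 259 at 9 h, and 228, 268 and 309 at 12 h. In vector cells Srebf1 had 576, 567 and 420 at 0 h, 345, 308 and 364 at 6 h, 467, 440 and 469 at 9 h, and 564, 503 and 577 at 12 h. Δ(177-191) cells kept the lowest Srebf1 signals at every time after 4-HT. The change at 12 h from 0 h was -0.33 ± 0.11 (adjusted p = 0.0158) in WT, -0.11 ± 0.11 in K298E, -0.65 ± 0.11 (adjusted p = 4.15e-06) in Δ(177-191) and 0.08 ± 0.11 in vector cells. Relative to vector it was -0.42 ± 0.15 in WT cells, which did not pass (adjusted p = 0.111).

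Srebf2 encodes the SREBP best known for cholesterol genes. In WT cells Srebf2 had signals of 520, 705 and 653 at 0 h, 441, 572 and 451 at 6 h, 491, 525 and 552 at 9 h, and 538, 575 and 528 at 12 h. In K298E cells Srebf2 had 558, 707 and 594 at 0 h, 414, 549 and 461 at 6 h, 639, 537 and 621 at 9 h, and 684, 601 and 721 at 12 h. Its range was narrower than that of Srebf1. Srebf2 in Δ(177-191) cells had 804, 921 and 792 at 0 h, 663, 664 and 608 at 6 h, 857, 793 and 854 at 9 h, and 706, 908 and 834 at 12 h. In vector cells Srebf2 had 668, 627 and 565 at 0 h, 425, 284 and 385 at 6 h, 521, 518 and 696 at 9 h, and 592, 657 and 464 at 12 h. The deepest fall at 6 h was in vector cells, at -0.78 ± 0.13 (adjusted p = 2.66e-05), and no line differed from its 0 h level by the test at 9 or 12 h. No relative change of Srebf2 passed at 6, 9 or 12 h in any construct, the value at 12 h being -0.05 ± 0.19 in WT cells, 0.24 ± 0.19 in K298E cells and 0.09 ± 0.19 in Δ(177-191) cells.

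Stard4 encodes a carrier that moves cholesterol between membranes. In WT cells Stard4 had signals of 579, 531 and 538 at 0 h, 339, 340 and 327 at 6 h, 302, 335 and 308 at 9 h, and 324, 345 and 363 at 12 h. In K298E cells Stard4 had 512, 538 and 494 at 0 h, 362, 369 and 378 at 6 h, 428, 422 and 395 at 9 h, and 472, 459 and 479 at 12 h. In every line, vector included, the arrays at 12 h were all below those at 0 h. Stard4 in Δ(177-191) cells had 618, 643 and 595 at 0 h, 270, 261 and 266 at 6 h, 326, 282 and 308 at 9 h, and 406, 378 and 351 at 12 h. In vector cells Stard4 had 556, 563 and 561 at 0 h, 488, 441 and 464 at 6 h, 452, 463 and 408 at 9 h, and 437, 466 and 487 at 12 h. WT and Δ(177-191) cells were lowest, and both were below vector by the relative change at 6, 9 and 12 h, at -0.40 ± 0.09 and -0.43 ± 0.09 at 12 h. Its other 2 probe sets were at -0.26 and -0.38 in WT cells, which did not pass, and at -0.66 and -0.72 in Δ(177-191) cells, which did.

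Among the fatty acid enzymes, 2 of the 3 chain-building genes, Acaca and Fasn, rose in WT cells. Acaca encodes acetyl-CoA carboxylase, which makes malonyl-CoA and is the committed step of fatty acid synthesis. In WT cells Acaca had a mean signal of 306 ± 13.9 at 0 h (SD, n = 3) and array signals of 643, 519 and 585 at 6 h, 442, 413 and 467 at 9 h, and 397, 465 and 436 at 12 h. In K298E cells Acaca had 350, 305 and 344 at 0 h, 348, 334 and 365 at 6 h, 338, 328 and 297 at 9 h, and 283, 238 and 358 at 12 h. All 9 later WT arrays were above all 3 at 0 h, and the later arrays of vector cells were likewise above all of theirs. Acaca in Δ(177-191) cells had 350, 348 and 313 at 0 h, 401, 335 and 408 at 6 h, 464, 348 and 334 at 9 h, and 520, 345 and 382 at 12 h. In vector cells Acaca had 289, 283 and 281 at 0 h, a mean of 295 ± 2.65 at 6 h (SD, n = 3), 384, 310 and 341 at 9 h, and 344, 318 and 373 at 12 h. Acaca rose in WT cells by 0.92 ± 0.12 (adjusted p = 6.15e-08) at 6 h, 0.52 ± 0.12 at 9 h and 0.49 ± 0.12 (adjusted p = 0.0014) at 12 h. No other line passed the test at any time. Relative to vector cells, the rise in WT cells passed at 6 h but not at 9 or 12 h.

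Fasn encodes fatty acid synthase, which builds palmitate. In WT cells Fasn had signals of 1374, 1485 and 1516 at 0 h, 1817, 1794 and 2033 at 6 h, 1855, 1746 and 1550 at 9 h, and 1931, 1721 and 1671 at 12 h. In K298E cells Fasn had 1640, 1437 and 1536 at 0 h, 1586, 1529 and 1488 at 6 h, 1553, 1598 and 1613 at 9 h, and 1458, 1627 and 1660 at 12 h. The WT arrays after 4-HT were higher than those at 0 h, whereas the K298E arrays overlapped theirs. Fasn in Δ(177-191) cells had 998, 939 and 1039 at 0 h, 949, 875 and 832 at 6 h, 932, 865 and 887 at 9 h, and 917, 981 and 1007 at 12 h. In vector cells Fasn had 1376, 1481 and 1467 at 0 h, 1574, 1383 and 1500 at 6 h, 1487, 1756 and 1663 at 9 h, and 1754, 1574 and 1722 at 12 h. Δ(177-191) cells had less Fasn than vector cells at 0 h already, with a log2 difference of -0.54 ± 0.08 (adjusted p = 4.39e-07). Fasn rose in WT cells by 0.37 ± 0.08 (adjusted p = 0.000276) at 6 h and 0.28 ± 0.08 at 12 h and in vector cells by 0.22 ± 0.08 at 12 h, and relative to vector no WT value passed. Elovl6, which lengthens palmitate to stearate, fell at 6 h with a log2 difference of -0.26 ± 0.09 in WT and -0.94 ± 0.09 in Δ(177-191) cells, and was still lower at 12 h in Δ(177-191) cells, with a log2 difference of -0.29 ± 0.09 (adjusted p = 0.0177).

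Of the 3 supply enzymes, Acss2 fell at 6 h in WT, K298E and vector cells, and Acly and Me1 moved little. Acly, ATP citrate lyase, which releases acetyl-CoA from citrate in the cytosol, had signals of 1120, 1149 and 1138 at 0 h, 1174, 1110 and 1046 at 6 h, 1198, 1132 and 1105 at 9 h, and 1088, 1102 and 1105 at 12 h in WT cells. In K298E cells Acly had 1123, 1143 and 1062 at 0 h, 1062, 973 and 1079 at 6 h, 1080, 1115 and 1037 at 9 h, and 1087, 1102 and 1110 at 12 h. Acly in Δ(177-191) cells had 1067, 1024 and 1044 at 0 h, 912, 955 and 915 at 6 h, 1219, 1106 and 1144 at 9 h, and 1187, 1148 and 1148 at 12 h. The Δ(177-191) arrays dipped at 6 h and lay above those of 0 h at 12 h, while WT and K298E arrays stayed within a narrow band. In vector cells Acly had 1023, 1079 and 1033 at 0 h, 1003, 953 and 956 at 6 h, 1036, 1073 and 991 at 9 h, and 999, 1067 and 1000 at 12 h. Its changes that passed were both in Δ(177-191) cells, at -0.17 ± 0.06 (adjusted p = 0.0228) at 6 h and 0.15 ± 0.06 (adjusted p = 0.0478) at 12 h.

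Acss2 makes acetyl-CoA from acetate. In WT cells Acss2 had signals of 250, 242 and 284 at 0 h, 153, 168 and 175 at 6 h, 179, 171 and 136 at 9 h, and 170, 188 and 169 at 12 h. In K298E cells Acss2 had 190, 206 and 192 at 0 h, 147, 132 and 146 at 6 h, 146, 154 and 125 at 9 h, and 185, 184 and 164 at 12 h. WT, K298E and vector arrays after 4-HT all lay below those of their own line at 0 h. Acss2 in Δ(177-191) cells had 118, 98 and 119 at 0 h, 98, 102 and 101 at 6 h, 110, 118 and 113 at 9 h, and 109, 125 and 114 at 12 h. In vector cells Acss2 had 247, 253 and 256 at 0 h, 172, 191 and 179 at 6 h, 143, 168 and 177 at 9 h, and 165, 193 and 188 at 12 h. Δ(177-191) cells started lower than vector cells, with a log2 difference of -1.16 ± 0.10 (adjusted p = 4.71e-13), and stayed near that level, while WT and vector cells fell with a log2 difference of -0.55 ± 0.10 and -0.47 ± 0.10 at 12 h. Me1, malic enzyme, a source of NADPH, had group means of 7.33 to 21.7, close to the median of all signals, and no change of it passed.

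At 6 h, 3 of the 4 desaturases fell in WT, K298E and Δ(177-191) cells and 2 in vector cells. Scd2, the stearoyl-CoA desaturase with signal in these cells, had signals of 3126, 3496 and 3712 at 0 h, 2413, 2383 and 2481 at 6 h, 2716, 2180 and 2076 at 9 h, and 3024, 2565 and 2714 at 12 h in WT cells. In K298E cells Scd2 had 3297, 2836 and 3292 at 0 h, 2526, 1716 and 2075 at 6 h, 2585, 2854 and 3389 at 9 h, and 2970, 3442 and 3192 at 12 h. In K298E cells the level at 12 h was again that of 0 h, and in WT cells it was lower. Scd2 in Δ(177-191) cells had 3468, 3048 and 3164 at 0 h, 2014, 2081 and 2037 at 6 h, 2390, 2903 and 2572 at 9 h, and 2562, 2897 and 3019 at 12 h. In vector cells Scd2 had 2614, 2953 and 3065 at 0 h, 2457, 2366 and 2234 at 6 h, 2205, 2727 and 2780 at 9 h, and 2802, 2788 and 2924 at 12 h. At 12 h Scd2 was below 0 h by the test in WT cells, with a log2 difference of -0.32 ± 0.11 (adjusted p = 0.0354), and the difference from the change in vector cells, -0.30 ± 0.16, did not pass (adjusted p = 0.407). Scd1, its paralogue, had group means of 4.67 to 17.7, close to the median of all signals, with no change that passed.

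Fads1 and Fads2 insert double bonds into polyunsaturated fatty acids. In WT cells Fads1 had signals of 773, 845 and 836 at 0 h, 359, 416 and 375 at 6 h, 406, 493 and 518 at 9 h, and 533, 520 and 524 at 12 h. In K298E cells Fads1 had 746, 773 and 840 at 0 h, 579, 523 and 476 at 6 h, 663, 708 and 694 at 9 h, and 807, 820 and 683 at 12 h. Fads1 was lowest at 6 h in both lines. Fads1 in Δ(177-191) cells had 815, 854 and 904 at 0 h, 420, 439 and 385 at 6 h, 479, 588 and 605 at 9 h, and 706, 731 and 687 at 12 h. In vector cells Fads1 had 846, 819 and 862 at 0 h, 521, 513 and 481 at 6 h, 593, 682 and 726 at 9 h, and 761, 672 and 691 at 12 h. By 12 h Fads1 was below its 0 h level in WT cells, with a log2 difference of -0.63 ± 0.09 (adjusted p = 2.47e-07), and in Δ(177-191) cells, with a log2 difference of -0.27 ± 0.09. Vector cells were then at 84.1% of their 0 h mean signal, close to the 82.5% of Δ(177-191) cells. Relative to vector at 12 h, Fads1 passed the test in neither WT nor Δ(177-191) cells. For Fads2, WT cells gave 892, 855 and 970 at 0 h, 354, 458 and 476 at 6 h, 372, 422 and 390 at 9 h, and 561, 483 and 590 at 12 h. In K298E cells Fads2 had 802, 894 and 892 at 0 h, 448, 470 and 486 at 6 h, 670, 607 and 714 at 9 h, and 732, 651 and 917 at 12 h. WT arrays at 12 h lay between those of 6 h and 0 h, below all at 0 h. Fads2 in Δ(177-191) cells had 1121, 968 and 771 at 0 h, 213, 236 and 215 at 6 h, 352, 328 and 398 at 9 h, and 472, 424 and 476 at 12 h. In vector cells Fads2 had 797, 802 and 885 at 0 h, 501, 467 and 512 at 6 h, 546, 680 and 645 at 9 h, and 837, 728 and 865 at 12 h. The Δ(177-191) arrays at 6 h were the lowest of all 48. The fall at 6 h was -1.08 ± 0.11 in WT, -0.88 ± 0.11 in K298E, -2.08 ± 0.11 (adjusted p = 1.02e-18) in Δ(177-191) and -0.74 ± 0.11 in vector cells. Its group means spanned 4.31-fold, the widest span of the 31 genes.

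Cholesterol and fatty acid enzymes were compared by counts and medians, with no test over the classes. The fatty acid enzymes include Me1 and Scd1, with signals near the median of all signals. The standard error of a change within a line was 0.61 for Me1 and 0.53 for Scd1, so only large changes could pass. At 6 h the median change from 0 h was -0.33 over 17 cholesterol enzymes and -0.39 over 10 fatty acid enzymes in WT cells. It was -0.66 and -0.15 in K298E, -0.83 and -0.33 in Δ(177-191), and -0.35 and -0.09 in vector cells. The cholesterol enzymes that fell were 11 in WT, 13 in K298E, 14 in Δ(177-191) and 10 in vector cells, and the fatty acid enzymes 5 in WT, 4 in K298E, 5 in Δ(177-191) and 3 in vector cells. Of all genes tested, 19% fell in WT, 7.04% in K298E, 18.3% in Δ(177-191) and 12% in vector cells. The 2 rises at 6 h were both fatty acid enzymes of WT cells, Acaca and Fasn. Relative to vector at 12 h, the median of cholesterol enzymes was -0.30 in WT, with 4 of 17 lower, and that of fatty acid enzymes -0.10, with 1 of 10 lower. In K298E cells these medians were -0.05 and 0.03, and in Δ(177-191) cells 0.19 and -0.01, with 3 higher and 1 lower among the cholesterol enzymes and 1 higher and 2 lower among the fatty acid enzymes. Over all genes the median was -0.03 for WT, 0.02 for K298E and -0.04 for Δ(177-191) cells. Of all genes tested, 3.4% were lower in WT cells. In Δ(177-191) cells 9.97% were higher and 12.4% lower, 22.4% in either direction, and the class counts there are near that background. The difference of class medians was -0.19 in WT cells, -0.08 in K298E cells and 0.20 in Δ(177-191) cells. On single arrays, the difference between the class medians of log2 signal had a within-group SD of 0.182. Being an SD of levels, it does not give the spread of the differences in relative change. In Δ(177-191) cells the difference in relative change turned to -0.16 when each gene was given as the median of its probe sets.

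Array by array, the median of the 17 cholesterol enzymes in WT cells, as a change from the mean of 0 h, was -0.40 ± 0.13 at 6 h, -0.37 ± 0.06 at 9 h and -0.31 ± 0.07 at 12 h (SD, n = 3). In K298E cells it was -0.62 ± 0.07, -0.36 ± 0.03 and -0.19 ± 0.05 at the same times. Δ(177-191) cells had -0.88 ± 0.13, the lowest of the 16 groups, then -0.35 ± 0.12 and -0.01 ± 0.05. Vector cells had -0.36 ± 0.03, -0.15 ± 0.05 and -0.15 ± 0.01. The 10 fatty acid enzymes had -0.33 ± 0.07, -0.18 ± 0.17 and -0.12 ± 0.14 in WT, and -0.32 ± 0.11, -0.16 ± 0.10 and -0.04 ± 0.06 in Δ(177-191) cells. In K298E cells they had -0.23 ± 0.11, -0.09 ± 0.06 and 0.02 ± 0.06, and in vector cells -0.17 ± 0.10, -0.14 ± 0.09 and -0.01 ± 0.01.

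**Figure D5:**
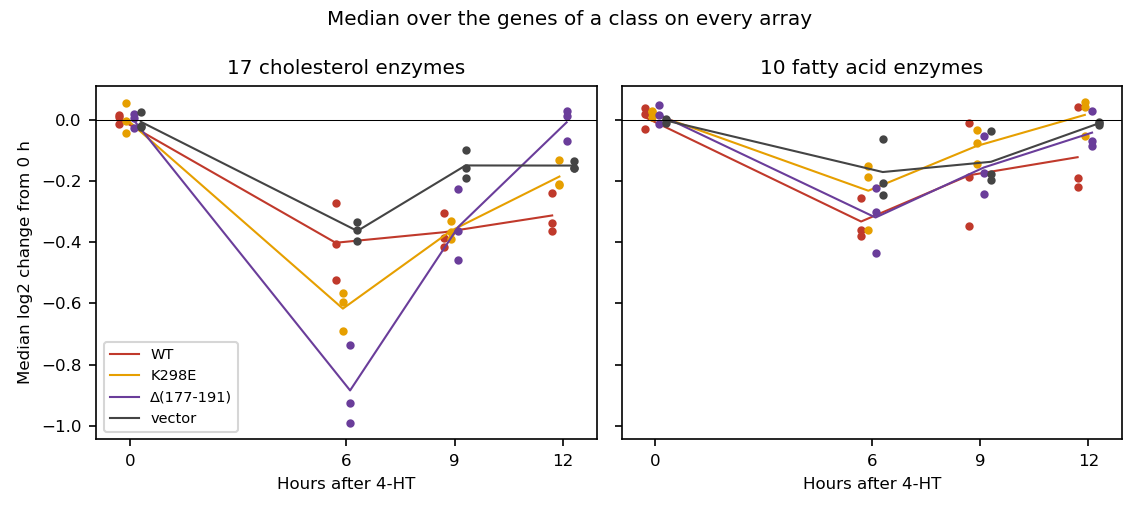
Median log2 change from the mean of 0 h over 17 cholesterol enzymes and over 10 fatty acid enzymes, against hours after 4-HT; each point is 1 array and lines join group means in WT, K298E, Δ(177-191) and vector cells. At 12 h the cholesterol median was -0.31 in WT and -0.01 in Δ(177-191) cells, against -0.15 in vector cells.

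WT and each mutant were compared by the mean change over 6, 9 and 12 h, which sets vector aside. Between WT and K298E cells 9 of 31 genes differed, 3 higher and 6 lower in WT, when 17.6% of all genes did, 8.46% higher and 9.1% lower. The genes with the lowest adjusted p were Idi1 (-0.71 ± 0.10, adjusted p = 7.19e-07), Fads1 (-0.57 ± 0.10, adjusted p = 6.46e-05), Stard4 (-0.42 ± 0.08, adjusted p = 7.03e-05) and Hmgcs1 (-0.57 ± 0.11, adjusted p = 0.000157), all lower in WT. Between WT and Δ(177-191) cells 11 of 31 differed, 7 higher and 4 lower in WT, when 25.4% of all genes did, 14.3% higher and 11.1% lower. Idi1 (-1.13 ± 0.10, adjusted p = 4.76e-12), Acss2, Hmgcs1 and Fdft1 were lower in WT, and Elovl6 (0.62 ± 0.11, adjusted p = 2.42e-05), Fasn, Dhcr7, Fads2, Acaca, Srebf1 and Stard4 were higher. This count was 7 without Δ(177-191) array 2 of 0 h. The second count is near the background share.

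Before 4-HT some of the genes already differed between the construct lines and vector cells. The counts in WT and K298E cells were near the background shares. In WT cells 3 of 31 genes were higher than in vector cells and 0 lower, at a background of 5.74%: Msmo1 (0.91 ± 0.22, adjusted p = 0.00938), Hmgcs1 (0.46 ± 0.09, adjusted p = 0.00142) and Fdft1 (0.39 ± 0.10, adjusted p = 0.0154). When any single array of this comparison was left out, 2 genes passed. In K298E cells 0 were higher and 2 lower, at 6.48%: Idi1 (-0.79 ± 0.09, adjusted p = 1.07e-08) and Acss2 (-0.36 ± 0.10, adjusted p = 0.021). The second of these did not pass without vector array 1, 2 or 3 of 0 h, or without K298E array 1 or 3 of 0 h, when 1 gene passed. In Δ(177-191) cells 7 were higher and 6 lower, at 28.6%, and 9 to 12 genes passed when a single array was left out. Msmo1 (1.21 ± 0.22), Hmgcs1 (0.69 ± 0.09) and Sc5d, lathosterol oxidase (0.63 ± 0.11), were the furthest above vector, and Acss2 (-1.16 ± 0.10), Nsdhl (-0.90 ± 0.07) and Idi1 (-0.70 ± 0.09) the furthest below.

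At 12 h against their own 0 h, 14 genes were lower and 2 higher in WT cells (30.9% of all genes in either direction, 16.2% lower), 4 lower and 0 higher in K298E cells (2.33% and 1.31%), 8 lower and 3 higher in Δ(177-191) cells (30.5% and 18.3%), and 7 lower and 3 higher in vector cells (17.5% and 9.76%). With arrays centred on their medians, the balance turned to 7 higher and 5 lower in Δ(177-191) cells and to 6 higher and 3 lower in vector cells. The 4 in K298E cells were Hmgcs1, Mvd, Idi1 and Sqle, and the count lay between 0 and 2 when any of 5 arrays was left out, which were K298E arrays 1, 2 and 3 of 0 h (1, 0 and 0 genes) and arrays 1 and 3 of 12 h (1 and 2 genes). In WT cells the lower genes were 7 of 17 cholesterol enzymes, 4 of 10 fatty acid enzymes and 3 of 4 regulators.

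Related genes outside the list were also set against vector at 12 h, where 7.22% of all genes passed in WT cells, 5.64% in K298E cells and 22.4% in Δ(177-191) cells. Of 5 tested genes of other sterol and prenyl branches, 1 was higher in WT cells and 1 in Δ(177-191) cells, with 0 in K298E cells, each time Nus1, a dolichol synthesis subunit (0.56 ± 0.10 in WT). Of 10 genes of sterol sensing, uptake and traffic, 1 was higher in WT, 0 changed in K298E, and 2 were higher and 1 lower in Δ(177-191) cells. The oxysterol-binding protein gene Osbp was higher in WT (0.67 ± 0.12, adjusted p = 0.000187) and in Δ(177-191) cells (0.997 ± 0.12, adjusted p = 3.15e-08). Insig2, the other retention protein, was higher in Δ(177-191) cells (0.53 ± 0.18, adjusted p = 0.0335), and Lrp8, a lipoprotein receptor, lower (-0.84 ± 0.17). Of 8 genes of efflux and esterification, 2 were lower in WT, 0 changed in K298E and 1 was lower in Δ(177-191) cells. Abcg1, a sterol export pump, was lower in WT (-1.12 ± 0.17, adjusted p = 8.25e-06) and Δ(177-191) cells (-0.94 ± 0.17, adjusted p = 5.65e-05), and Lpcat3, a phospholipid remodelling enzyme, was lower in WT (-0.52 ± 0.10).

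Of 22 tested genes of other fatty acid and lipid synthesis, 2 were higher and 1 lower in WT, 3 higher and 1 lower in K298E, and 8 higher and 4 lower in Δ(177-191) cells. Dgat1, which makes triglyceride from diglyceride, was higher by 1.34 ± 0.12 (adjusted p = 1.99e-11) in WT and 2.58 ± 0.12 (adjusted p = 2.25e-20) in Δ(177-191) cells, and Agpat2, an acyltransferase of phosphatidic acid synthesis, by 1.10 ± 0.14 in WT cells, 0.51 ± 0.14 in K298E cells and 1.19 ± 0.14 in Δ(177-191) cells. The acyl-CoA synthetase gene Acsl3 was lower in WT (-0.49 ± 0.15) and Δ(177-191) cells (-0.99 ± 0.15), and Acsl5 in K298E (-0.35 ± 0.08) and Δ(177-191) cells (-0.65 ± 0.08). Lpin1, a phosphatidate phosphatase, was higher in K298E (1.06 ± 0.17) and Δ(177-191) cells (0.82 ± 0.17), and Mid1ip1, an activator of acetyl-CoA carboxylase, in Δ(177-191) cells (1.58 ± 0.10). Of 11 genes of fatty acid oxidation and lipid droplets, 1 was higher in WT, 1 in K298E, and 2 were higher and 2 lower in Δ(177-191) cells. Plin2, a lipid droplet coat protein, was higher in all 3, at 0.69 ± 0.12 in WT cells, 0.77 ± 0.12 in K298E cells and 0.98 ± 0.12 in Δ(177-191) cells.

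Markers of maturation moved beside these results. The summed signal of the 9 granulocyte maturation genes at 12 h was 2442 to 2499 in WT, 341 to 455 in K298E, 7946 to 10234 in Δ(177-191) and 198 to 243 in vector cells. The sum rests on few genes. Group means reached 8914 for Lcn2, 1726 for Itgam, 598 for S100a9 and 499 for S100a8. Those of Mpo, Ltf and Ngp reached 385, 246 and 123, while those of Elane were 4 to 20 and those of Camp 2.33 to 13. From 0 to 12 h the genes of this list with a mean over 14 went from 7 to 5 in WT and from 6 to 7 in Δ(177-191) cells. Those over 100 went from 2 to 3 in WT and from 6 to 5 in Δ(177-191) cells. The erythroid and megakaryocyte list summed to 815 to 896 in WT and 1258 to 1339 in vector cells at 12 h. Hepatocyte genes summed to 12 to 42 and fibroblast and adipocyte genes to 32 to 67 over the arrays at 0 and 12 h. Ighm carried the lymphoid list, which summed to 528 to 628 in Δ(177-191) cells and 24 to 79 in the other lines. The part of maturation, or of the makeup of the cultures, in the changes of the sterol and fatty acid genes was not tested.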

How the data were processed

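The authors deposited 1 table of MAS5 signal intensities on a linear scale, per the submitters' processing notes, for 48 Affymetrix MOE430_2 arrays. The MAS5 version and settings are not given in the sources used here. Values were taken as deposited and transformed to log2(signal + 3); the log2 scale of every change is computed here from the deposited intensities. The added 3 is the 20th percentile of all signals and understates changes of genes with low signals. After 64 control probe sets were left out, 45037 remained, of which the platform annotation gives 34945 a single symbol, 932 several and 9160 none. The filter kept 27167 probe sets, those for which any of the 16 groups had a mean above 4.09, the log2 median of the table, or a signal of 14.

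A model of 16 group means was fitted over all 48 arrays with limma 3.58.1 in R 4.3.3, with variance following the mean and 32 residual degrees of freedom. P-values are two-sided and adjusted by Benjamini and Hochberg over all probe sets tested, with a threshold of 0.05. A log2 change carries the standard error of the fit. The spread between 3 arrays limits the precision. The labels speak of triplicates and of 3 separate experiments, but do not tie the arrays to experiments or cultures. The spread behind each p-value is therefore that of these arrays alone and may be technical. The fitting code was tested on simulated data.

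Arrays of every sample are given for the 3 called genes with the largest relative change at 12 h in each construct, the 2 genes of each role with the highest mean signal, and Insig1, Srebf1 and Srebf2. Hmgcs1 was added after its values were seen, as were the comparisons of 12 h with 6 h, their alternatives and the 4 promoters shown. The members and all lists were chosen with earlier results of these data known. Related genes were named by up to 2 rises and 2 falls in each list and construct; for Agpat2 and Lpin1 the Δ(177-191) value was added after seeing it. Alternatives were pseudocounts of 12 and 32, no filter, quantile normalization, median centring, array weights, no variance trend, the median of a gene's probe sets, the compared groups alone, a replicate block, and leaving out arrays.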

Additional observations from a re-analysis of the deposited data

Results flagged for a closer look

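The mean change over 6, 9 and 12 h differed between WT and a mutant line, by a test of the difference itself (limma), for the genes below. Each value is WT minus the mutant on the log2 scale.

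Against K298E cells, 6 of 31 genes were lower in WT, where 9.1% of all genes were: Idi1 (-0.71 ± 0.10, adjusted p = 7.19e-07), Hmgcs1 (-0.57 ± 0.11, adjusted p = 0.000157), Fads1 (-0.57 ± 0.10, adjusted p = 6.46e-05), Fdft1 (-0.54 ± 0.12, adjusted p = 0.000888), Fads2 (-0.52 ± 0.13, adjusted p = 0.00409) and Stard4 (-0.42 ± 0.08, adjusted p = 7.03e-05). The 3 that were higher in WT, where 8.46% of all genes were, were Acaca (0.71 ± 0.14, adjusted p = 0.000247), Mvd (0.39 ± 0.12, adjusted p = 0.0255) and Fasn (0.26 ± 0.09, adjusted p = 0.0427).

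Against Δ(177-191) cells, 4 of 31 were lower in WT, where 11.1% of all genes were: Idi1 (-1.13 ± 0.10, adjusted p = 4.76e-12), Acss2 (-0.60 ± 0.11, adjusted p = 6.84e-05), Hmgcs1 (-0.58 ± 0.11, adjusted p = 5.45e-05) and Fdft1 (-0.44 ± 0.12, adjusted p = 0.00496). The 7 that were higher in WT, where 14.3% of all genes were, were Elovl6 (0.62 ± 0.11, adjusted p = 2.42e-05), Dhcr7 (0.52 ± 0.14, adjusted p = 0.00576), Fads2 (0.50 ± 0.13, adjusted p = 0.00415), Acaca (0.44 ± 0.14, adjusted p = 0.0196), Fasn (0.41 ± 0.09, adjusted p = 0.00059), Srebf1 (0.33 ± 0.12, adjusted p = 0.0476) and Stard4 (0.25 ± 0.08, adjusted p = 0.0135). Hmgcs1, Idi1 and Fdft1 were lower and Acaca and Fasn higher in WT in both comparisons, which share the WT arrays. Fads2 and Stard4 were lower in WT than in K298E cells and higher in WT than in Δ(177-191) cells.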

How the results depend on the processing

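For single genes, alternatives were run on the relative change at 12 h: 2241 values kept their side of the threshold, 33 passed it only under the alternative and 51 lost it. No change that passed in either setting turned its sign. The sign turned in 85 of 2325 values that passed in neither setting, 62 of them on leaving out arrays and 9 with the median of a gene's probe sets. The difference of class medians in Δ(177-191) cells, 0.20, was -0.16 with the median of a gene's probe sets. In K298E cells relative to vector at 12 h, 0 genes became 2 with array weights and with median centring, and 1 with the compared groups alone, a pseudocount of 32 or quantile normalization. Their 4 genes below 0 h at 12 h became 0 with the compared groups alone, median centring or no variance trend, 1 with no filter and 2 with the median of probe sets. At 0 h the 3 genes of WT cells became 5 with array weights, the compared groups alone or quantile normalization, and the 2 of K298E cells became 1 with median centring. Median centring shifted the median of all genes by up to about 0.1 and moved the share of calls that were higher by over 10 percentage points in several comparisons. Among the 31 genes it gave 7 higher and 5 lower in Δ(177-191) cells at 12 h against 0 h (3 and 8 otherwise), 6 and 3 in vector cells (3 and 7), 2 and 15 in WT cells at 6 h (2 and 20), 5 and 6 for the mean change of WT minus K298E (3 and 6) and 8 and 4 for Δ(177-191) against vector at 0 h (7 and 6).

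Leaving out arrays singly or by number gave 3 to 6 genes for WT relative to vector at 12 h, 0 to 1 for K298E and 5 to 10 for Δ(177-191). Against 0 h at 12 h the counts were 12 to 16 in WT, 0 to 3 in K298E, 5 to 11 in Δ(177-191) and 2 to 9 in vector cells, and at 6 h 16 to 21, 18 to 21, 20 to 22 and 11 to 16. From 6 to 12 h they were 4 to 8 in WT, 13 to 19 in K298E, 20 to 22 in Δ(177-191) and 5 to 10 in vector cells, 7 to 9 for Δ(177-191) relative to vector and 8 to 15 for WT minus Δ(177-191). For the mean change they were 7 to 10 for WT minus K298E and 5 to 11 for WT minus Δ(177-191), and at 0 h 1 to 2 in WT, 1 to 2 in K298E and 9 to 12 in Δ(177-191) cells against vector. Fewer arrays enter each of these fits, and the causes of the shifts in count were not tested.

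No label ties equal replicate numbers, and the correlation of deviations had a median of 0.00952 over same-numbered and -0.00597 over other arrays. Of 48 arrays, 25 correlated best with their own number, where 16 would if numbers carried nothing, a hint from the data that falls short of a pairing. With the replicate number as a block, WT relative to vector at 12 h had 6 genes, K298E 0 and Δ(177-191) 9, WT minus K298E had 10, vector cells at 12 h 10, WT cells at 6 h 23, and 12 h against 6 h 11 in WT and 11 in vector cells, with 15 for WT minus Δ(177-191).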
